A study of Mus musculus with 8 samples.

Results

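The 10 genes described here encode enzymes that modify collagen: the lysyl oxidases Lox, Loxl1, Loxl2, Loxl3 and Loxl4, the lysyl hydroxylases Plod1, Plod2 and Plod3, and the catalytic subunits of prolyl 4-hydroxylase P4ha1 and P4ha2. They were chosen by name from 35498 genes measured by bulk RNA sequencing of sarcoma cells sorted from mouse tumours. All 10 passed the filter on low counts, which left 16309 genes. Each of 4 groups held 2 libraries. The sgMif group carried Cas9 and a guide RNA against Mif (labelled Mif-knockout), and the sgSCR group Cas9 and a control guide. The shMif group carried a short hairpin RNA against Mif, and the shSCR group a control hairpin. The series' design text gives Cas9 to the hairpin cells too, while the labels' growth notes name it for the guide cells. All 4 groups came from the same C57BL/6 mesenchymal stem cells, p53-/- and with Ccne1 overexpressed, which had formed tumours in a first set of mice. The transduced cells were then grown under the skin of further mice on polyurethane scaffolds to about 1 cm3, and sorted on a fluorescent marker. The sources used here state neither the age of the mice, the marker and any cloning of the lines, nor if replicate libraries are from different mice. P-values therefore reflect the spread of these libraries alone, and that spread may be technical.

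Collagen is modified in steps. In the endoplasmic reticulum, prolyl 4-hydroxylases act on proline, which stabilises the triple helix, and lysyl hydroxylases act on lysine. After secretion, the copper-dependent lysyl oxidases turn lysine and hydroxylysine into reactive aldehydes that join neighbouring collagen and elastin molecules. The hydroxylases need oxygen, and several of these genes are known to be induced by low oxygen through the factor HIF-1.

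Total estimated counts were 19042235 to 51819308 reads per library. Mif, the targeted gene, had 221 and 222 CPM (scaled counts-per-million units) in sgMif 1 and 2, against 377 and 455 CPM in sgSCR 1 and 2. It had 277 and 222 CPM in the libraries labelled shMif, against 170 and 375 CPM in shSCR 1 and 2, so the knockdown label was not borne out at the transcript level. The 10 mesenchymal markers summed to 29716 to 53741 CPM, while 6 epithelial markers summed to 2.59 to 8.78 CPM. Reads on olfactory receptor genes were over 1000 CPM in 5 libraries (sgMif 1, both sgSCR, shMif 1 and shSCR 1) and below it in the other 3, a split that no label names. Values within those 5, where 3 of the groups have 1 library and the spread rests on the sgSCR pair, are given as the high olfactory class.

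Levels were compared between enzymes in TPM (transcripts-per-million units), which corrects for transcript length. P4ha1 had 134 to 348 TPM over the 8 libraries, Lox 109.5 to 324 TPM and P4ha2 90.4 to 273 TPM. Loxl2 had 113 to 210.2 TPM and Plod2 117 to 167 TPM. No firm order held among these 5, since by mean TPM each stood above the next in only 3 to 6 of 8 libraries. Below them by mean came Plod3 at 78.0 to 119 TPM, Loxl3 at 35.6 to 80.8 TPM and Plod1 at 29.3 to 43.3 TPM. Plod2, Plod3, Loxl3 and Plod1 each stood above the next in 8 of 8 libraries, though Plod3 exceeded P4ha2 in sgMif 1, at 106 TPM against 90.4 TPM. Loxl1, at 5.03 to 31.7 TPM, and Loxl4, at 9.19 to 25.8 TPM, were lowest and changed places between libraries. Transcripts that do not encode protein took part in this order. Over protein-coding transcripts alone the mean of 8 libraries was 20.3 TPM for Loxl3, against 59.4 TPM over all its transcripts, which places it below Plod1 at 34.0 TPM.

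**Figure D1:**
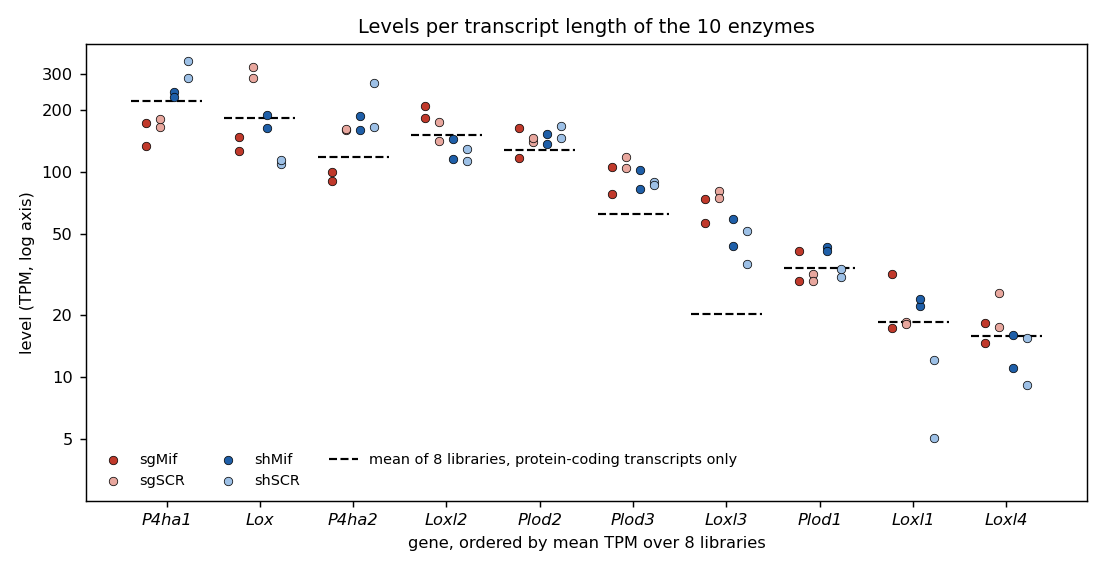
Level of each enzyme in TPM (log axis), 1 point per library coloured by group, with a dashed line at the mean of 8 libraries over protein-coding transcripts. P4ha1, Lox, P4ha2, Loxl2 and Plod2 overlap at the top, Loxl1 and Loxl4 lie lowest, and the dashed line of Loxl3 (20.3 TPM) lies below all its points.

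Of the 10 enzymes, 1 passed the test in sgMif against sgSCR. It was Lox, which fell, where 0.619% of all genes tested fell, 0.368% rose and 0.987% changed in either direction (edgeR quasi-likelihood test, Benjamini-Hochberg adjusted p under 0.05). In the libraries labelled shMif against shSCR, 0 of 10 passed in edgeR, where 0.0184% of genes did. There 4 members had an unadjusted p under 0.05, where 9.26% of genes did, and DESeq2 called 1, Lox, where it called 1.38% of genes. The guide effect minus the hairpin effect passed for 1 of 10, again Lox and below 0, where 0.092% of genes passed, 0.0858% below 0 and 0.00613% above. In shSCR against sgSCR, the control groups of the 2 systems, P4ha1 rose and Lox and Loxl3 fell, where 4.02% of genes changed, 2.23% higher and 1.79% lower. The median log2 fold change of the 10 was -0.22 for sgMif against sgSCR, 0.11 for shMif against shSCR and -0.38 for shSCR against sgSCR, beside -0.01, 0.03 and -0.04 over all genes. The libraries of the groups did not overlap for 5 of the 10 in sgMif against sgSCR, 1 higher and 4 lower, where 51.3% of all genes did not, 27.1% higher and 24.2% lower. They did not overlap for 5 in shMif against shSCR, 4 higher and 1 lower, where 41.7% of genes did not, 19.4% higher and 22.3% lower. Both counts are near the background. They did not overlap for 10 in shSCR against sgSCR, 4 higher and 6 lower, where 54.6% of genes did not, 28.4% higher and 26.3% lower. The last comparison shares its libraries with both others.

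**Figure D2:**
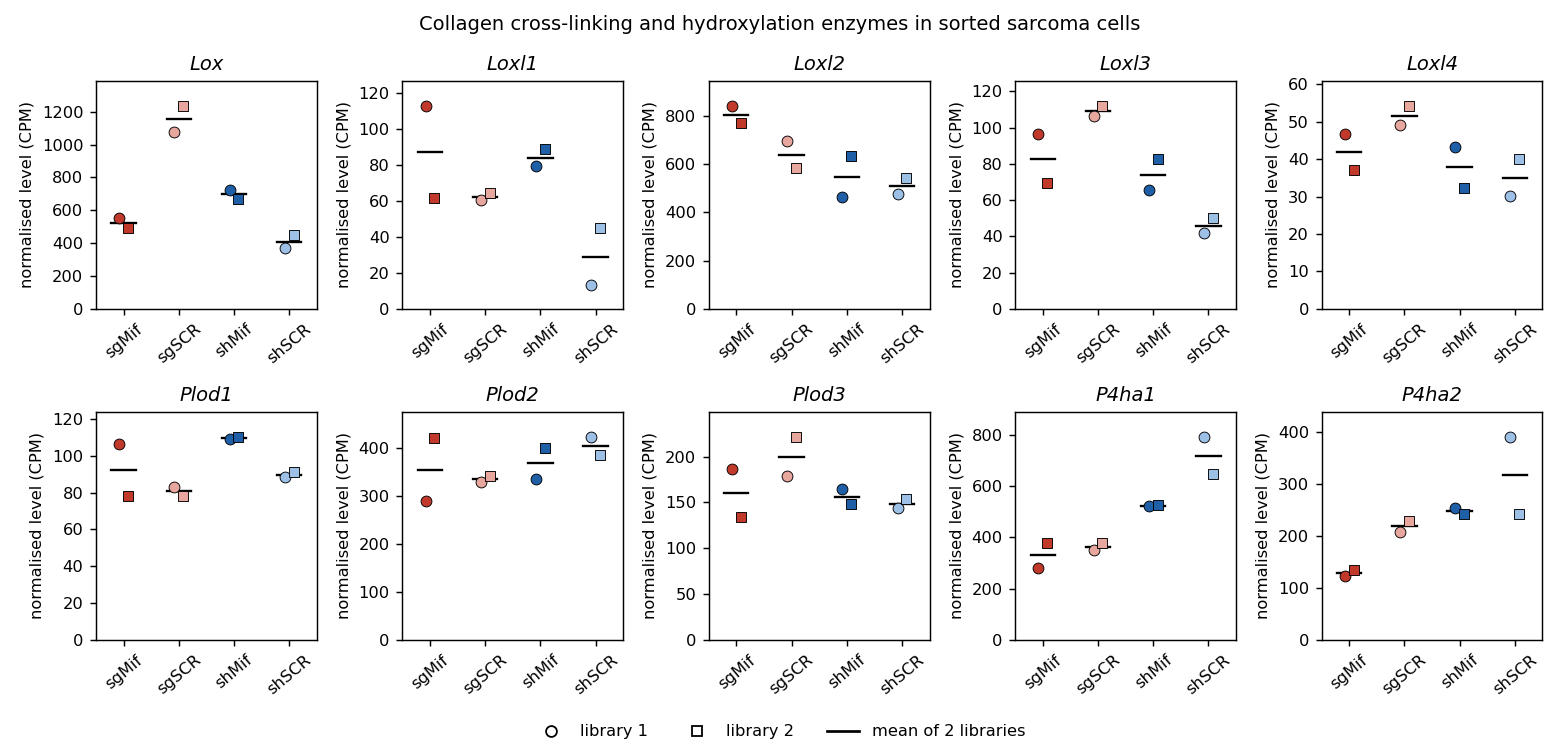
Normalised level in CPM of each enzyme (vertical axis from 0) in the 4 groups, with a circle for library 1, a square for library 2 and a bar at their mean. Lox is lower in both sgMif than in both sgSCR libraries and lowest in shSCR, while P4ha1 is highest in shSCR.

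Lox, the founding lysyl oxidase, fell with the Mif guide (ENSMUSG00000024529, chromosome 18, 52516067 to 52529867, minus strand, mm10). It had 555 and 491 CPM in sgMif 1 and 2, against 1078 and 1233 CPM in sgSCR 1 and 2. Both sgMif libraries lay far below both sgSCR libraries. Lox averaged 523 ± 45.3 CPM in sgMif and 1155 ± 109.8 CPM in sgSCR (SD, n = 2 each), 2.21-fold lower with the guide and a log2 fold change of -1.14 ± 0.16 (SE, edgeR adjusted p = 0.033). In the high olfactory class it was -1.06 (edgeR adjusted p = 0.0103). The log2 fold change stayed between -1.24 and -1.04 in each alternative run, but the call was lost with counts scaled by transcript length (edgeR adjusted p = 0.0578) and without any of 6 single libraries. Its edgeR adjusted p was 0.115 without sgMif 1, 0.196 without sgMif 2, 0.12 without sgSCR 1, 0.168 without sgSCR 2, 0.0552 without shMif 1 and 0.0584 without shMif 2.

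In the hairpin system Lox stood the other way. It had 726 and 667 CPM in the libraries labelled shMif, against 369 and 449.8 CPM in shSCR 1 and 2. Both libraries labelled shMif were above both of shSCR, but the log2 fold change of 0.77 ± 0.16 (SE) did not pass in edgeR (adjusted p = 0.352). It passed in DESeq2 (0.79, adjusted p = 0.000596), in edgeR with no filter on low counts (0.73, adjusted p = 0.00648), without shSCR 2 (0.92, adjusted p = 0.0275) and in the high olfactory class (0.98, adjusted p = 0.0128). The guide effect minus the hairpin effect was -1.91 ± 0.22 on the log2 scale (SE, edgeR adjusted p = 0.0471). That call held without shSCR 2 (-2.06, edgeR adjusted p = 0.0123) and was lost without any other single library, at differences of -2.01 to -1.77. The edgeR adjusted p was then 0.0965 without sgMif 1, 0.171 without sgMif 2, 0.147 without sgSCR 1, 0.171 without sgSCR 2, 0.181 without shMif 1, 0.104 without shMif 2 and 0.0597 without shSCR 1. It was 0.0833 with counts scaled by transcript length and 0.0559 over protein-coding transcripts.

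The control groups stood at the ends of the range of Lox. The sgMif libraries and those labelled shMif, at 491 to 726 CPM, lay above both shSCR and below both sgSCR libraries. Lox was 2.82-fold lower in shSCR than in sgSCR, a log2 fold change of -1.50 ± 0.16 (SE, edgeR adjusted p = 0.00471). In the high olfactory class it was -1.65 (edgeR adjusted p = 0.000315), and without sgSCR 2 it was -1.38 and no longer passed (edgeR adjusted p = 0.0505).

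Genes listed as markers of host skin fibroblasts moved with Lox in part. The sarcoma cells are mesenchymal too, so host and sarcoma transcripts of these genes cannot be told apart here. Gsn, at 475 to 585 CPM, and Pdgfra, at 387 to 680 CPM over the 8 libraries, made up much of the sums. The 11 genes of this list summed to 1395 and 1264 CPM in sgMif, against 2460 and 2242 CPM in sgSCR. Their median log2 fold change was -1.19, and 1 fell, where 0.619% of all genes did. The gene that fell was Dcn, a collagen-binding proteoglycan, at 307 and 192 CPM in sgMif, against 1238 and 1028 CPM in sgSCR. Its call was lost without sgMif 2, without sgSCR 1 and without sgSCR 2. The sums were 1800 and 1880 CPM in the libraries labelled shMif, against 1872 and 1836 CPM in shSCR, and did not follow the higher Lox there. Most single genes did, as 9 of the 11 had a positive log2 fold change, with a median of 0.88. In edgeR 0 of them passed, and 7 had an unadjusted p under 0.05, where 9.26% of all genes did. In shSCR against sgSCR 4 of the 11 fell, Dcn, Lum, Dpt and Mfap5, where 1.79% of all genes did. Macrophage markers, 15 genes, summed to 167 and 139 CPM in sgMif, against 534 and 259 CPM in sgSCR. Of these 2 fell, where 0.619% of all genes did. They were Mrc1 and Cd163, the last at 0 in both sgMif libraries, against 103 and 24.9 CPM in sgSCR. Cd163 was also near 0 in the hairpin system, at 0.103 and 0.341 CPM in the libraries labelled shMif and 0.596 and 0.0202 CPM in shSCR. Both calls were lost without sgMif 2, without sgSCR 1 and without sgSCR 2. The 10 endothelial markers summed to 184 and 40.9 CPM in sgMif, against 272 and 282 CPM in sgSCR, though 9 of the 10 had a positive log2 fold change. Most of the sgSCR sums was Pecam1, with 111 and 25.0 CPM in sgMif, against 246 and 261 CPM in sgSCR. Cdh5 had 26.0 and 5.59 CPM in sgMif, against 7.14 and 7.48 CPM in sgSCR, so sgMif 1 alone stood higher. The part of these markers in the changes of Lox was not tested, and in bulk samples fewer cells of a type and less RNA per cell cannot be told apart.

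Loxl2, known for cross-linking basement membrane collagen, had no such fall (ENSMUSG00000034205, chromosome 14, 69609068 to 69695834, plus strand). It had 839 and 769 CPM in sgMif, against 697 and 582 CPM in sgSCR. Both sgMif libraries were higher, but the log2 fold change of 0.33 ± 0.18 (SE) did not pass (edgeR adjusted p = 0.411). It had 463 and 634 CPM in the libraries labelled shMif, against 477 and 544 CPM in shSCR, which overlapped. The balance between Lox and Loxl2 is given as values, with no test. The ratio of Lox to Loxl2 in TPM was 0.702 and 0.686 in sgMif, against 1.65 and 2.29 in sgSCR. It was 1.63 and 1.13 in the libraries labelled shMif, against 0.972 and 0.882 in shSCR. Lox made up 30.7 and 31.6% of the TPM of the 5 oxidases in sgMif, against 49.7 and 55.4% in sgSCR. By TPM Lox was above Loxl2 in both sgSCR libraries and below it in both sgMif libraries.

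Loxl3, needed in mice for palate and spine formation, was lower in the hairpin control (ENSMUSG00000000693, chromosome 6, 83034173 to 83052562, plus strand). It had 41.8 and 50.2 CPM in shSCR, against 106 and 112 CPM in sgSCR. It fell 2.37-fold, a log2 fold change of -1.25 ± 0.20 (SE, edgeR adjusted p = 0.0216), and -1.39 in the high olfactory class (adjusted p = 0.000907). The call was lost in edgeR without sgSCR 1 (-1.28, adjusted p = 0.106), sgSCR 2 (-1.20, adjusted p = 0.132) or shSCR 1 (-1.12, adjusted p = 0.0871), and with counts scaled by transcript length (-0.74, adjusted p = 0.145). Loxl3 had 96.4 and 69.2 CPM in sgMif, below both sgSCR libraries, at a log2 fold change of -0.40 ± 0.20 (SE, edgeR adjusted p = 0.366). It had 65.4 and 82.7 CPM in the libraries labelled shMif, above both shSCR libraries, at 0.69 ± 0.20 (SE, edgeR adjusted p = 0.456), which passed with no filter on low counts (0.65, adjusted p = 0.0222). The difference of these effects had the sign of that of Lox, at -1.09 ± 0.28 (SE), and did not pass (edgeR adjusted p = 0.172). It passed in DESeq2 (-1.13, adjusted p = 0.0117) and in edgeR with no filter (-1.03, adjusted p = 0.00362), and was -0.42 with counts scaled by transcript length (adjusted p = 0.578). Htra2, at up to 48.9 CPM, overlaps Loxl3 on the opposite strand, and the sources used here do not state if counting used strand.

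Loxl1, which serves elastic fibres, varied most, with its highest library 8.58 times its lowest in CPM. It had 113 and 61.9 CPM in sgMif, against 60.7 and 64.3 CPM in sgSCR, so sgMif 1 alone stood apart. The log2 fold change of 0.48 ± 0.49 (SE) did not pass (edgeR adjusted p = 0.66), but did in the high olfactory class, which holds sgMif 1 (0.85, adjusted p = 0.0306). It had 79.8 and 88.8 CPM in the libraries labelled shMif, against 13.1 and 45.1 CPM in shSCR. The shSCR libraries were both lower and far apart, and the log2 fold change of 1.53 ± 0.50 (SE) did not pass (edgeR adjusted p = 0.481). It passed in edgeR without shSCR 2 (2.68, adjusted p = 0.0143), in the high olfactory class (2.60, adjusted p = 0.000287) and with no filter on low counts (1.51, adjusted p = 2.32e-12), and without shSCR 1 it was 0.90. Loxl1 in shSCR against sgSCR stood at -1.10 ± 0.50 (SE, edgeR adjusted p = 0.237). That passed in the same settings, at -2.25 without shSCR 2 (edgeR adjusted p = 0.0101), -2.25 in the high olfactory class (adjusted p = 0.000176) and -1.08 with no filter (adjusted p = 8.28e-07), and was -0.47 without shSCR 1. The guide effect minus the hairpin effect, -1.05 ± 0.70 (SE, edgeR adjusted p = 0.489), passed in those settings too, at -2.20 (adjusted p = 0.0442), -1.75 (adjusted p = 0.00819) and -1.01 (adjusted p = 0.00568), and was -0.42 without shSCR 1. The share of mitochondrial reads was 1.63% in shSCR 1 and 2.12 to 2.65% elsewhere, and its part in these values was not tested.

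Loxl4, the oxidase with the lowest mean TPM over the 8 libraries, ranged from 30.2 to 54.1 CPM over the 8 libraries. It had 46.7 and 37.2 CPM in sgMif, against 49.1 and 54.1 CPM in sgSCR, with both sgMif libraries lower (log2 fold change -0.30 ± 0.21 SE, edgeR adjusted p = 0.507). It had 43.2 and 32.3 CPM in the libraries labelled shMif, against 30.2 and 39.9 CPM in shSCR, which overlapped. Between the controls it stood at -0.56 ± 0.21 (SE, edgeR adjusted p = 0.167), and passed in the high olfactory class (-0.77, adjusted p = 0.0331).

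None of the 3 lysyl hydroxylases passed in any comparison in edgeR. Plod2, whose product acts on the telopeptides at the ends of collagen, had 290.2 and 422 CPM in sgMif, against 331 and 342 CPM in sgSCR, with the sgMif libraries on either side of the controls. It had 337 and 401 CPM in the libraries labelled shMif, against 424 and 386 CPM in shSCR, which overlapped. Its log2 fold changes were 0.08 ± 0.19 (SE, edgeR adjusted p = 0.862) with the guide and -0.13 ± 0.19 (adjusted p = 0.858) with the hairpin. Its highest library was 1.46 times its lowest in CPM, against 3.35 times for Lox. Plod1, which acts on the helical part, had 106 and 78.3 CPM in sgMif, against 83.0 and 78.4 CPM in sgSCR. In the libraries labelled shMif it had 109 and 110.1 CPM, above the 88.7 and 90.9 CPM of shSCR (log2 fold change 0.29 ± 0.16 SE, edgeR adjusted p = 0.607). Plod3, which also attaches sugars to hydroxylysine, had 187 and 134 CPM in sgMif, against 178 and 221 CPM in sgSCR, and the groups overlapped (-0.32 ± 0.19 SE, edgeR adjusted p = 0.434). It had 165 and 148 CPM in the libraries labelled shMif, against 144 and 154 CPM in shSCR. Znhit1, at up to 40.8 CPM, overlaps Plod3 on the opposite strand.

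**Figure D3:**
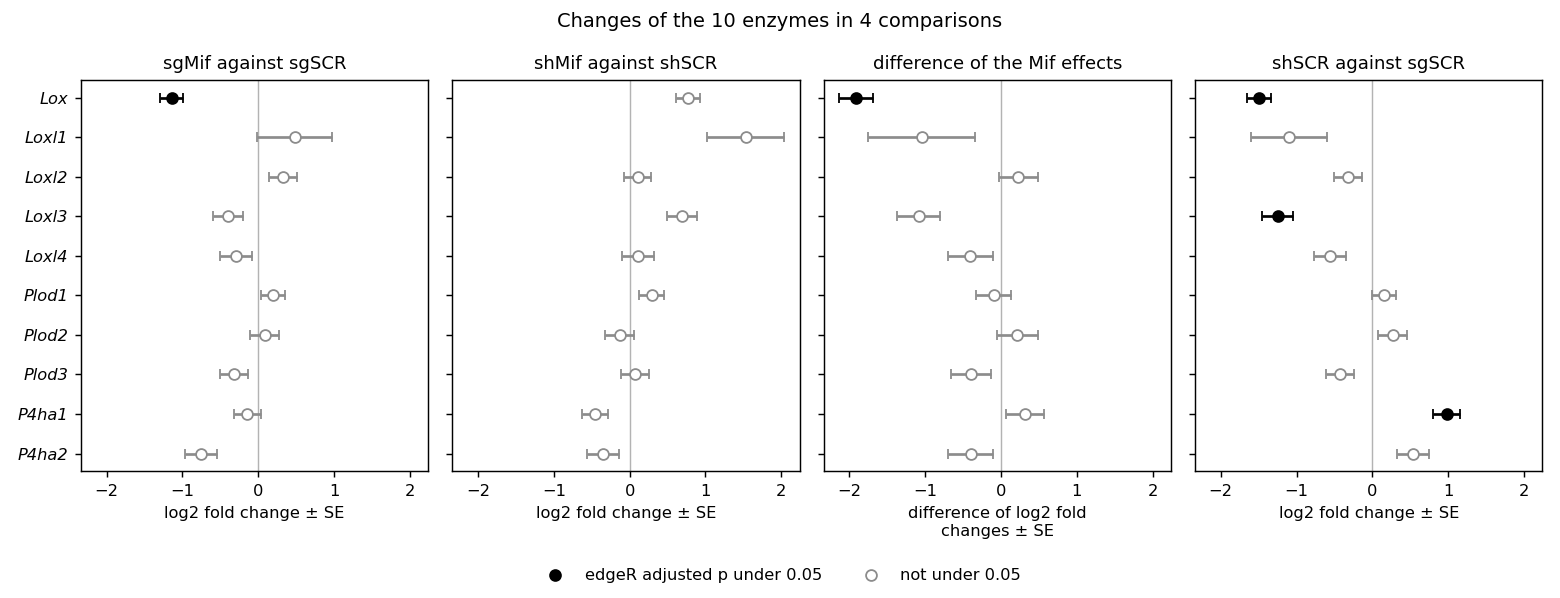
Log2 fold change with SE of each enzyme in 4 comparisons, where filled points passed the edgeR test and the difference is the guide effect minus the hairpin effect. Lox passed in 3 comparisons, at -1.14, -1.91 and -1.50, and Loxl3 and P4ha1 passed in shSCR against sgSCR.

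P4ha1, the more widely used catalytic subunit of prolyl 4-hydroxylase, was higher in the hairpin control (ENSMUSG00000019916, chromosome 10, 59323296 to 59373304, plus strand). It had 792 and 648 CPM in shSCR, against 351 and 378 CPM in sgSCR. It rose 1.98-fold, a log2 fold change of 0.98 ± 0.18 (SE, edgeR adjusted p = 0.0295), and 1.12 in the high olfactory class (adjusted p = 0.000989). The edgeR call was lost without sgSCR 1 (0.93, adjusted p = 0.169), sgSCR 2 (1.06, adjusted p = 0.169), shSCR 1 (0.83, adjusted p = 0.0965), shMif 1 (adjusted p = 0.0555) or shMif 2 (adjusted p = 0.0591), and in the 4 control libraries alone (adjusted p = 0.0648). P4ha1 had 280.2 and 379.7 CPM in sgMif, which overlapped sgSCR (log2 fold change -0.14 ± 0.18 SE, edgeR adjusted p = 0.717). It had 523 and 526 CPM in the libraries labelled shMif, below both shSCR libraries (-0.46 ± 0.18 SE, edgeR adjusted p = 0.518).

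P4ha2, the other catalytic subunit, was lower in both sgMif libraries (ENSMUSG00000018906, chromosome 11, 54100095 to 54131665, plus strand). It had 124 and 135 CPM in sgMif, against 208 and 228 CPM in sgSCR. The log2 fold change of -0.75 ± 0.21 (SE) did not pass in the fit of 8 libraries (edgeR adjusted p = 0.131). It passed in DESeq2 (-0.78, adjusted p = 0.0101), in edgeR with no filter on low counts (-0.74, adjusted p = 0.00162), on the 4 guide libraries alone (-0.76, adjusted p = 0.0418), without shSCR 1 (adjusted p = 0.0289) or shSCR 2 (adjusted p = 0.0314), and in the high olfactory class (-0.82, adjusted p = 0.0311). P4ha2 had 253 and 241 CPM in the libraries labelled shMif, against 389.8 and 243 CPM in shSCR, where shSCR 1 alone stood apart. Without shSCR 2 that log2 fold change was -0.66 and passed (edgeR adjusted p = 0.0437), and without shSCR 1 it was 0.025. Between the controls it stood at 0.54 ± 0.21 (SE, edgeR adjusted p = 0.177). That passed without shSCR 2 (0.84, edgeR adjusted p = 0.0114), in the high olfactory class (0.84, adjusted p = 0.00491) and with no filter (0.58, adjusted p = 0.0176), and was 0.15 without shSCR 1. The ratio of P4ha1 to P4ha2 in TPM was 1.49 and 1.73 in sgMif, against 1.035 and 1.12 in sgSCR.

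The promoters of the 2 prolyl hydroxylase subunits P4ha1 and P4ha2 are shown, as HIF-1 is known to bind sites with the letters ACGTG. Their levels varied together across libraries (Pearson r = 0.86 of log2 CPM, n = 8, over libraries that share groups). Those of Loxl4 and Plod3 did so as strongly (r = 0.87), and their windows are not printed. Each window is from RefSeq (GRCm38.p6), with 250 bases before and 50 after the start annotated there. The sequences run 5′ to 3′, with ACGTG on either strand, thus also CACGT, in capitals.
P4ha1, chr10:59323046-59323345, plus strand: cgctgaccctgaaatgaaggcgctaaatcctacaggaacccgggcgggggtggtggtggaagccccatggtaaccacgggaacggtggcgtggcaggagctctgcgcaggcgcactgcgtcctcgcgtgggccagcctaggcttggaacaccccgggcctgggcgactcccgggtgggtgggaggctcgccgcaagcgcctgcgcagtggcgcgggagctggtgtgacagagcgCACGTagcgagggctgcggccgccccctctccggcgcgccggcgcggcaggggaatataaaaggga
P4ha2, chr11:54100674-54100973, plus strand: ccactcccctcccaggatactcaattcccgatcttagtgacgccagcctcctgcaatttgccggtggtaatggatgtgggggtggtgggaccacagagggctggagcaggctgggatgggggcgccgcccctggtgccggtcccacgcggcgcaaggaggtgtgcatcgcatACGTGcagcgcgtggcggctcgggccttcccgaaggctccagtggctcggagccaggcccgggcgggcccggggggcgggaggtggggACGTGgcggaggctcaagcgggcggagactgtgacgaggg
The P4ha1 window held 1 match and the P4ha2 window 2. A match was present in 3 of 5 members with a window, Plod3 included, while Plod1 and Loxl4 held none. Of all 32851 windows of this length, 19.6% held one. A match of letters describes the window and does not show that a factor binds there.

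Alternative coding exons within Plod2, P4ha1 and P4ha2 were read from the deposited TPM of single transcripts. The exons are printed because they tell the forms apart, with the exon in capitals and 12 bases of each neighbouring exon in lower case (GENCODE M21, mm10, plus strand, 5′ to 3′).
Plod2 included exon, chr9:92601985-92602047: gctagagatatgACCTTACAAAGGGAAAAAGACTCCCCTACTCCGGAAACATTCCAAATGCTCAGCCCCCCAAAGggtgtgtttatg
P4ha1 first alternative exon, chr10:59354340-59354410: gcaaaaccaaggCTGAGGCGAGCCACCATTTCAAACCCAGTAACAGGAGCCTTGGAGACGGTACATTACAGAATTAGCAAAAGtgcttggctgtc
P4ha1 second alternative exon, chr10:59355350-59355420: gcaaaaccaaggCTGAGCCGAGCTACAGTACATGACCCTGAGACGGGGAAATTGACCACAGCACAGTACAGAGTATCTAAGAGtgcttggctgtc
P4ha2 first alternative exon, chr11:54126238-54126297: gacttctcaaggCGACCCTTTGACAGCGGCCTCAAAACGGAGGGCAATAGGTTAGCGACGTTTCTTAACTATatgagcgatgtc
P4ha2 second alternative exon, chr11:54126346-54126411: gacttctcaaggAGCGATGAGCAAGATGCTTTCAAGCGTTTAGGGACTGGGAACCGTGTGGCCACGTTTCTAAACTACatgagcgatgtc
The Plod2 exon has 63 bases and marks the long form of the enzyme, the form known for telopeptide hydroxylation. The P4ha1 exons have 71 bases each and are identical at 42 positions, and those of P4ha2 have 60 and 66 bases. None of the annotated transcripts held both exons of a pair.

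The long form of Plod2 led in each library. It made up 71.5 and 80.4% of the TPM of the full-length forms in sgMif, against 74.1 and 69.1% in sgSCR. It made up 79.6 and 74.3% in the libraries labelled shMif, against 82.0 and 80.5% in shSCR. The guide groups overlapped, and both shSCR libraries were above both of those labelled shMif. The first exon of P4ha1 was in 21.3 to 24.9% of its TPM in 7 libraries and in 9.54% in shSCR 1. The first exon of P4ha2 was in 76.4 and 66.0% of the TPM that could be assigned in sgMif, against 68.3 and 74.8% in sgSCR. It was in 57.8 and 67.4% in the libraries labelled shMif, against 65.1 and 61.8% in shSCR, so the groups overlapped in both systems. With 2 libraries a side an exact permutation test of a share cannot go below p = 0.333, and the quantification assigns reads by all differences between transcripts, their ends included.

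The 2 transcripts of Lox share a coding sequence of 1233 bases and differ at their 5′ ends, with 7 and 8 exons. The 8-exon form (ENSMUST00000171470) made up 9.35 and 25.9% of Lox TPM in sgMif, against 7.98 and 7.52% in sgSCR. It made up 13.2 and 20.1% in the libraries labelled shMif, against 59.2 and 37.8% in shSCR. Both shSCR libraries stood above the other 6. In TPM, the 7-exon form had 134 and 93.2 in sgMif, against 265 and 300 in sgSCR, and 164 and 131 in the libraries labelled shMif, against 44.7 and 71.2 in shSCR. The 8-exon form ran the other way in the hairpin system, with 24.9 and 32.9 TPM in the libraries labelled shMif, against 64.8 and 43.2 TPM in shSCR.

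**Figure D4:**
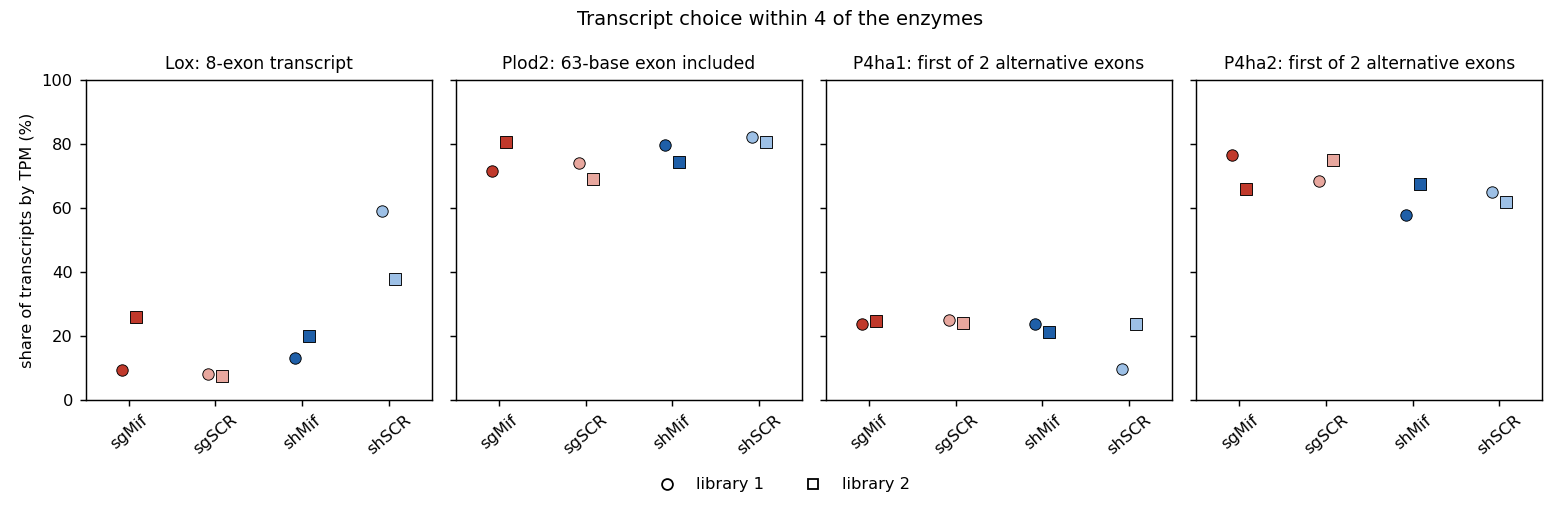
Share of transcripts by TPM (percent, vertical axis) in each library, with circles for library 1 and squares for library 2. The 8-exon form of Lox is highest in shSCR, the Plod2 exon is included at 69.1 to 82.0%, and P4ha1 is even but for shSCR 1 at 9.54%.

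Partners of these enzymes in the endoplasmic reticulum include chaperones and further hydroxylases. Of 15 tested, 0 passed in edgeR in sgMif against sgSCR, and the median log2 fold change was 0.06. An unadjusted p under 0.05 was found for 2, where 16.6% of all genes had one, and DESeq2 called 1, where it called 6.58% of genes. The smallest p belonged to P3h2, a prolyl 3-hydroxylase, at -0.92 ± 0.20 (SE, edgeR adjusted p = 0.0773), followed by Mia3, which helps export large collagens, at 0.44 ± 0.15 (SE, adjusted p = 0.19). In shSCR against sgSCR 1 of the 15 fell, where 1.79% of all genes did. That was P4ha3, a further catalytic subunit of prolyl 4-hydroxylase. It had 25.3 and 19.0 CPM in shSCR, against 60.4 and 78.5 CPM in sgSCR (log2 fold change -1.65, edgeR adjusted p = 0.0226), which is opposite in sign to P4ha1.

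Fibrillar collagens and elastin are the substrates of the lysyl oxidases. Of 12 tested, 1 fell and 0 rose in sgMif against sgSCR, where 0.619% of all genes fell and 0.368% rose. A positive log2 fold change was found for 9, and the median was 0.23. The one that fell was Col24a1, a minor fibrillar collagen, at 13.1 and 10.3 CPM in sgMif, against 26.0 and 31.2 CPM in sgSCR (-1.30 ± 0.22 SE, edgeR adjusted p = 0.0441). Its call was lost without sgMif 2, without sgSCR 1 and without sgSCR 2. Col1a2, a chain of type I collagen, had 7883 and 8159 CPM in sgMif, against 5529 and 5514 CPM in sgSCR (0.54 ± 0.26 SE, edgeR adjusted p = 0.341). The median was 0.59 in shMif against shSCR and -0.67 in shSCR against sgSCR, and 0 passed in edgeR in both. In shMif against shSCR 4 had an unadjusted p under 0.05, where 9.26% of all genes did, and DESeq2 called 3, where it called 1.38%. In shSCR against sgSCR 3 had one, where 22.9% of all genes did, and DESeq2 called 3, where it called 12.9%.

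Of 8 genes that process procollagen and the Lox proenzyme outside the cell, 0 passed in edgeR in sgMif against sgSCR. There 2 had an unadjusted p under 0.05, where 16.6% of all genes did, and DESeq2 called 2, where it called 6.58%. Pcolce2, an enhancer of procollagen cleavage, had the smallest p and stood higher, with 38.6 and 23.5 CPM in sgMif, against 11.9 and 16.4 CPM in sgSCR (log2 fold change 1.14 ± 0.27 SE, edgeR adjusted p = 0.0943). Its relative Pcolce stood lower, with 339 and 279 CPM in sgMif, against 437 and 486 CPM in sgSCR (-0.58 ± 0.16 SE, edgeR adjusted p = 0.132). Bmp1, the protease that activates Lox, had 528 and 450.0 CPM in sgMif, against 606 and 632 CPM in sgSCR (-0.34 ± 0.17 SE, edgeR adjusted p = 0.365). In shSCR against sgSCR 1 fell, where 1.79% of all genes did. That was the procollagen protease Adamts2, with 10.6 and 11.7 CPM in shSCR, against 90.2 and 44.0 CPM in sgSCR (-2.59, edgeR adjusted p = 0.0206).

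Of 9 genes for docking and copper supply of lysyl oxidases, 0 passed in edgeR in sgMif against sgSCR, with 6 at an unadjusted p under 0.05, where 16.6% of all genes had one, and 5 called by DESeq2, where it called 6.58%. The smallest p belonged to genes of both directions. Fn1, fibronectin, stood at 0.81 ± 0.17 (SE, edgeR adjusted p = 0.0713), the copper transporter Slc31a1 at 0.63 ± 0.14 (SE, adjusted p = 0.0861) and Fbln5 at -0.85 ± 0.20 (SE, adjusted p = 0.0884). Tnxb had 0 and 0.519 CPM in sgMif, against 10.1 and 3.79 CPM in sgSCR (edgeR adjusted p = 0.0775). Fbln5, an elastic fibre protein known to bind lysyl oxidase family members, was the 1 of 9 whose guide and hairpin effects differed (-2.31 ± 0.28 SE, edgeR adjusted p = 0.0471). Of all genes 0.0858% differed below 0. The call was lost with counts scaled by transcript length and over protein-coding transcripts, where 0 genes passed. Fbln5 had 27.2 and 32.1 CPM in sgMif, against 45.0 and 62.4 CPM in sgSCR, and 31.7 and 34.0 CPM in the libraries labelled shMif, against 10.9 and 12.9 CPM in shSCR. Like Lox, it was highest in sgSCR and lowest in shSCR. In shSCR against sgSCR 3 of the 9 fell, where 1.79% of all genes did. They were Fbln5 (-2.17, edgeR adjusted p = 0.00358), Efemp2 (-0.90, adjusted p = 0.0181) and Fmod. Fmod was near the floor, at 0 reads in both shSCR libraries and 1.13 and 0.798 CPM in sgSCR. In the same comparison 2 rose, where 2.23% of all genes did, Fn1 (0.77, edgeR adjusted p = 0.046) and Slc31a1 (0.78, adjusted p = 0.0308).

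Of 22 genes of oxygen sensing and the hypoxia response, 3 fell and 0 rose in sgMif against sgSCR. Of all genes 0.619% fell and 0.368% rose there. A positive log2 fold change was found for 2 of the 22, and the median was -0.55. The sgMif libraries were not alike in all of these genes. Pdk1 had 67.2 and 151 CPM in sgMif, against 116 and 129 CPM in sgSCR. Ankrd37 had 25.9 and 53.8 CPM in sgMif, against 38.9 and 47.9 CPM in sgSCR. The 3 that fell were lower in both sgMif libraries than in both sgSCR libraries. The glucose transporter Slc2a1 had 364 and 397 CPM in sgMif, against 759 and 852 CPM in sgSCR (-1.08, edgeR adjusted p = 0.049). Ndrg1 fell by 1.40 on the log2 scale (edgeR adjusted p = 0.0363) and the oxidoreductase Ero1l by 1.48 (adjusted p = 0.0394). These 3 calls were lost without sgMif 2, without sgSCR 1 and without sgSCR 2. The median was -0.31 in shMif against shSCR, where 0 passed in edgeR. There 6 had an unadjusted p under 0.05, where 9.26% of all genes did, and DESeq2 called 1, where it called 1.38%. In shSCR against sgSCR the median was 0.26. There 1 rose, Slc2a1 (0.92, edgeR adjusted p = 0.0409), where 2.23% of all genes did. P4ha2 and P4ha1 were the members with the sign of the list's median in these 3 comparisons. P4ha2 stood at -0.75, -0.36 and 0.54, and P4ha1 at -0.14, -0.46 and 0.98. Lox had the opposite sign in the last 2. Again shSCR against sgSCR shares its libraries with both others, and a link of these genes to oxygen was not tested.

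The 3 genes most like a member were ranked among 9185 protein-coding genes by Pearson r of log2 CPM over the 8 libraries. As these are the highest of 9185 values over 8 libraries that share groups, a high r was found for every member. The lowest r of a first-ranked gene was 0.92, for Plod3. For Lox the 3 genes were C4b, Txnip and Cyb5r1, at r of 0.97 to 0.98. The first for P4ha2 was Slc2a1 (r = 0.98) and for P4ha1 Spry2 (r = 0.99). For Loxl3 it was Dok1 (r = 0.98), which starts 701 bases away on the opposite strand. Dok1 had 19.1 and 23.7 CPM in shSCR, against 42.4 and 40.3 CPM in sgSCR, and fell too (log2 fold change -0.95, edgeR adjusted p = 0.0273). Among the members themselves, the highest r were those of Loxl4 and Plod3 (r = 0.87, n = 8), P4ha1 and P4ha2 (r = 0.86) and Lox and Loxl3 (r = 0.84). Loxl2 and P4ha2 ran opposite (r = -0.89, n = 8).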

How the data were processed

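Per the submitters' processing notes, the authors used Trimmomatic and Salmon with build mm10, with versions and settings not given in the sources used here. Each deposited table gives, per the file headers, an estimated count of reads and a TPM value for each of 116546 transcripts of 1 library. Of these, 115977 were matched to GENCODE M21 genes, and the 569 others, with 0.101 to 0.205% of reads, were left out. Estimated counts were summed per gene and rounded. Genes were filtered with filterByExpr (minimum count 10, minimum total 15) and scaled by TMM in edgeR 4.0.16 (R 4.3.3). All 8 libraries entered a single fit by group mean (4 residual degrees of freedom), and p-values were adjusted by Benjamini-Hochberg over 16309 genes at 0.05. DESeq2 1.42.0 was an alternative. On simulated data of 16309 genes for sgMif against sgSCR, 24 of 100 genes changed 2-fold and 66 of 100 changed 4-fold were called. There were 8 false calls among the genes left unchanged. Replicate libraries differed beyond counting noise, most of all the shSCR pair. Chi-square per degree of freedom was 120.1 in shSCR, against 41.8 in sgMif, 24.4 in sgSCR and 34.1 in shMif.

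Named were the 10 members, Mif, genes among the 4 with the smallest p of each list, and the 3 genes most like a member (prior count 2, mean log2 CPM of at least 3). Other genes named passed a test or overlap a member (Htra2 and Znhit1). Gsn, Pdgfra, Pdk1 and Ankrd37 were named to show how single genes or libraries shape a list's values. Dok1's distance was looked up after its rank was seen. The members and lists were chosen with earlier results of these data known. Protein sequences were not used here.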

Additional observations from a re-analysis of the deposited data

Results flagged for a closer look

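The effects of the Mif guide and the Mif hairpin on Lox differed by a test of the difference itself, at -1.91 ± 0.22 on the log2 scale (SE, edgeR adjusted p = 0.0471). Both sgMif libraries were below both sgSCR libraries, and both libraries labelled shMif were above both shSCR libraries. The call was lost without any single library other than shSCR 2. It was also lost with counts scaled by transcript length and over protein-coding transcripts. Mif itself had 277 and 222 CPM in the libraries labelled shMif, against 170 and 375 CPM in shSCR. The 2 control groups also differed in Lox, at a log2 fold change of -1.50 for shSCR against sgSCR.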

How the results depend on the processing

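Counts past the threshold are given in the order sgMif against sgSCR, shMif against shSCR, the difference of these effects, and shSCR against sgSCR, from 1, 0, 1 and 3 members and 161, 3, 15 and 655 genes. They were 2, 1, 2 and 3 members and 990, 182, 654 and 1948 genes with DESeq2, and 2, 3, 3 and 5 members and 1494, 662, 1306 and 2425 genes with no filter on low counts. They were 0, 0, 0 and 2 members and 15, 5, 0 and 286 genes with counts scaled by transcript length, and 1, 0, 0 and 3 members and 121, 3, 0 and 418 genes over protein-coding transcripts. In the high olfactory class they were 3, 2, 2 and 6 members and 331, 835, 699 and 2386 genes. With only the 4 libraries compared, which gives no difference, they were 2, 0 and 2 members and 278, 0 and 142 genes. Leaving out 1 library gave 0 to 2, 0 to 3, 0 to 2 and 0 to 5 members and 0 to 314, 0 to 767, 0 to 515 and 56 to 1849 genes. With a replicate block the counts were 1, 0, 1 and 3 members and 263, 14, 50 and 210 genes. The numbers are not stated to pair libraries, and deviations of same-numbered libraries correlated at r = 0.18, 0.26 and 0.15 over genes for the 3 pairs of groups. Of the alternative values of single members, 560 kept their direction and side of the threshold, 28 gained a call, 27 lost one and 15 changed sign. Among uncalled members, log2 values changed sign in the high olfactory class for Plod2 (-0.21, guide), Loxl2 (-0.042, hairpin) and Plod1 (0.094, difference), and over protein-coding transcripts for Plod3 (-0.0048, hairpin). Leaving out 1 library gave -0.012 to 0.85 for Loxl1, -0.38 to 0.058 for P4ha1, -0.043 to 0.40 for Plod1 and -0.21 to 0.33 for Plod2 with the guide. It gave -0.14 to 0.31 for Loxl2, -0.12 to 0.32 for Loxl4, -0.66 to 0.025 for P4ha2 and -0.0036 to 0.15 for Plod3 with the hairpin, and -0.33 to 0.11 for Plod1 and -0.079 to 0.46 for Plod2 in the difference. Where a value changed, the cause was not tested. A library left out leaves 1 in its group, which is assumed to vary like the others.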
